A study of Mus musculus with 3 samples.

Results

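MHC class II genes were followed in skin-resident macrophages of the mouse at 3 ages within telogen, the resting phase of the hair follicle. The set holds 10 of the 19748 genes named on the array: the chains H2-Aa, H2-Ab1 and H2-Eb1, the invariant chain Cd74, the peptide-loading genes H2-DMa, H2-DMb1, H2-Oa and H2-Ob, the transactivator Ciita and the costimulatory ligand Cd86. They were chosen by name, and their probes were found through the RefSeq transcript that the array design pairs with each probe. H2-Ob had 2 probes and the other genes 1 probe each, so that 11 probes were read, all well above background on all 3 arrays, with 1 spot per probe.

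The cells were CD11b+Gr1-F4/80+ cells sorted from the backskin of CD1 mice at postnatal days 42, 55 and 69 (P42, P55 and P69), which the study treats as early, mid and late telogen and compares to follow the macrophages as telogen proceeds towards hair growth. The study's methods describe female mice, and the paper gives a slightly later day for early telogen than the labels. RNA of 3 littermates was pooled for each age, amplified from small amounts as a whole transcriptome, labelled with Cy3 and hybridized to 1 array per age, with all 3 arrays on 1 slide. With 1 pool per age there is no spread between animals, no test was possible, and every difference below compares arrays.

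MHC class II molecules present peptides from engulfed material to CD4+ T cells. An alpha and a beta chain assemble in the endoplasmic reticulum around the invariant chain, which blocks the groove and directs the complex to endosomes, where proteases trim it down to a short fragment. H2-DM then exchanges this fragment for a peptide, H2-O restrains H2-DM, and Ciita switches on the whole set by acting through the factors that sit on the shared promoter elements of these genes. In skin the pathway is known from Langerhans cells, dermal dendritic cells and part of the macrophages, and H2-O is known mainly from B cells and some dendritic cells.

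Levels are given as log2 of the spot's processed signal relative to the 75th percentile of its array, so that a difference of 1 is 2-fold. At P42 71.4% of all probes were well above background, at P55 59.7% and at P69 68.7%, and no spot was saturated. Error could be measured only from probes spotted several times on an array. Its SD for a difference between arrays was 0.167 for P69 against P42, 0.159 for P55 against P42 and 0.155 for P69 against P55, which leaves out pooling, amplification and the animals. In the log2 table of the authors, the column of P55 matches the scanner file deposited for P69 (residual SD 0.00435) and the column of P69 matches the file deposited for P55 (residual SD 0.00571). Which age the 2 later arrays belong to is not settled by these files. P55 and P69 below name the arrays as deposited, and under the other assignment the 2 sets of changes trade places.

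Of the 10 genes, H2-Oa stood apart. It was higher on both later arrays than at P42, by 2.21 (log2, 4.64-fold) at P69 and 2.69 (6.47-fold) at P55, whereas none of the other genes was 2-fold higher on either array by its brighter or single probe. The classical chains, Cd74, H2-DM and Ciita were lower at P69 than at P42, by 0.39 to 1.51, but 6 of these 7 were higher at P69 without normalization, 5 after quantile normalization and 3 after scaling to the array median. They changed by -0.02 to 0.74 from P42 to P55. The changes of the 2 chains of H2-O differed from each other by more than those of the chains of I-A or of H2-DM.

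**Figure D1:**
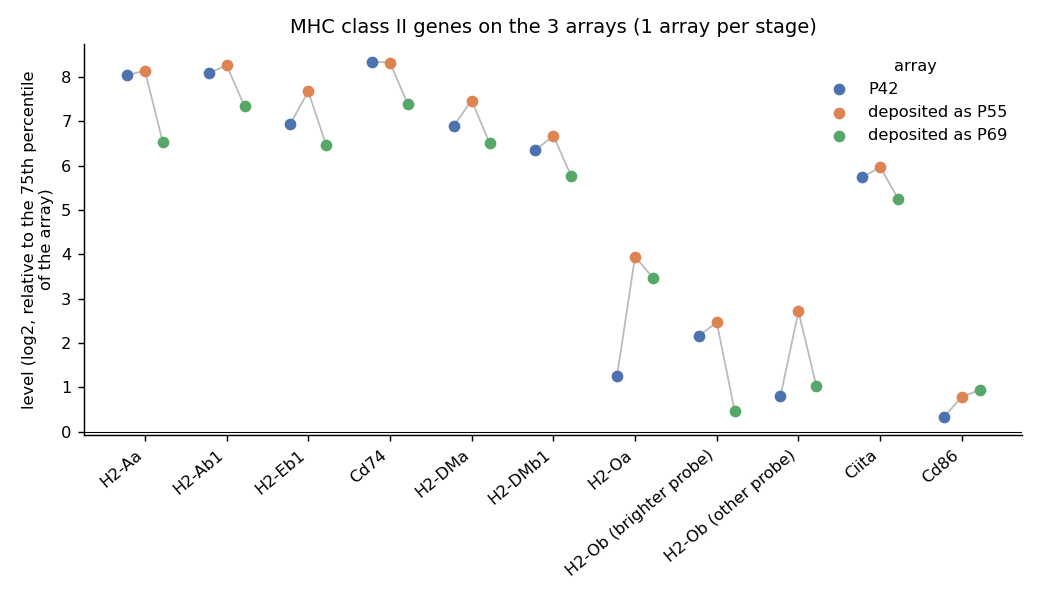
Level of each MHC class II gene on the 3 arrays (y axis, log2 relative to the 75th percentile of the array; 1 point per array and probe, joined for each probe). H2-Oa is at 1.25 at P42 and at 3.95 and 3.47 on the arrays deposited as P55 and P69; points of different probes are not comparable in height, since probes differ in how brightly they bind.

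H2-Aa encodes the alpha chain of I-A, the class II molecule that binds peptide together with the H2-Ab1 chain. Its level was 8.04 at P42, 8.15 at P55 and 6.53 at P69. The P69 array was thus the low one, by 1.51 (2.85-fold) against P42, while P55 and P42 differed by 0.11, less than 2 SD of the spot error (0.319). The signals before scaling were 108864 at P42, 140744 at P55 and 85562 at P69, so that P69 was the lowest array on that scale as well.

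H2-Ab1, the beta chain of I-A, had levels of 8.08, 8.27 and 7.34 at P42, P55 and P69. It was lower by 0.74 at P69 and differed by 0.19 at P55. Its signals before scaling, 112096 at P42 and 150301 at P69, run the other way, and without normalization the P69 array was the higher one. Because both chains were read on the same arrays, the difference between their changes does not depend on such a common factor: from P42 to P69 H2-Aa was lower than H2-Ab1 by 0.77 more, against an SD of 0.24 from spot error, and from P42 to P55 by 0.08 more.

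H2-Eb1 encodes the beta chain of I-E, the second classical class II molecule. Its level was 6.93 at P42, 7.68 at P55 and 6.46 at P69, highest at P55 by 0.74 over P42. From P42 to P69 it was lower by 0.47, a direction that turned to 0.69 without normalization, 0.35 after quantile normalization and 0.05 with the array median. The alpha chain of I-E, H2-Ea, had no probe named on this array by its symbol. H2-Eb2, a related beta chain gene, had levels of -2.74, -1.92 and -3.81.

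Cd74, the invariant chain that accompanies the class II chains, read 8.35, 8.33 and 7.39 at the 3 ages. P42 and P55 differed by 0.02, and P69 was lower than P42 by 0.96 (1.94-fold), a direction that turned to 0.20 without normalization and 0.16 after quantile normalization. The signals before scaling were 134629 at P42, 159504 at P55 and 155133 at P69. Over the 3 classical chains and Cd74, the median change was -0.85 from P42 to P69 and 0.15 from P42 to P55.

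H2-DMa and H2-DMb1 encode the chains of H2-DM, the molecule that loads peptide in endosomes. H2-DMa read 6.90 at P42, 7.47 at P55 and 6.51 at P69, and H2-DMb1 read 6.35, 6.68 and 5.76. Both were highest at P55 and lowest at P69 on this scale, but lowest at P42 in the signals before scaling (49380 at P42 and 84543 at P69 for H2-DMa, 33655 and 50249 for H2-DMb1), and after quantile normalization they were higher at P69 than at P42 by 0.43 and 0.10. Their changes differed from each other by 0.04 to 0.24 over the 3 comparisons. H2-DMb2, the neighbouring and nearly identical copy of H2-DMb1, read 6.63, 6.84 and 6.16, and the probes of such copies may share signal.

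H2-Oa, the alpha chain of the H2-DM inhibitor H2-O, read 1.25 at P42, 3.95 at P55 and 3.47 at P69. P42 was the low array, and the 2 later ones differed by 0.48. The signals before scaling were 988, 7668 and 10265, in which P42 was low as well. Of 16163 genes with a value, 593 had a larger increase from P42 to P69 than H2-Oa, and of 15835 genes 431 had a larger one from P42 to P55. H2-Oa was higher by 2.01 to 3.38 at P69 and by 2.17 to 3.25 at P55 under all 12 alternatives that could be computed for it. Several of these could hardly move it. Its single probe was well above background on all arrays, so the filters, the outlier spots and the median over probes left it as it was. The exchange of P55 and P69 and the authors' table swap 2 arrays on which H2-Oa was high.

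H2-Ob encodes the beta chain of H2-O, and its 2 probes disagreed. The brighter probe read 2.16 at P42, 2.46 at P55 and 0.47 at P69, which is lower by 1.69 (3.22-fold) at P69 and higher by 0.31 at P55. The other probe read 0.80, 2.71 and 1.03, which is higher by 0.23 at P69 and by 1.91 (3.77-fold) at P55. From P55 to P69 both probes were lower, by 2.00 and 1.68, whereas no direction from P42 to P69 can be given for H2-Ob, since it turns with the probe. The mean signals that decide which of the probes stands for the gene were close, at 1956 and 1954. By the brighter probe, H2-Oa and H2-Ob moved apart by 3.90 from P42 to P69 and by 2.39 from P42 to P55. By the other probe they lay closer, at 2.21 and 0.23 from P42 to P69 and at 2.69 and 1.91 from P42 to P55.

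Ciita, which drives class II transcription, read 5.74, 5.97 and 5.26, with P69 the low array by 0.48 on this scale but higher by 0.68 without normalization and by 0.04 with the array median, and P55 higher than P42 by 0.23, less than 2 SD of the spot error. Cd86, the ligand of Cd28 and Ctla4 on T cells, read 0.33, 0.78 and 0.94. Cd86 was the only gene besides H2-Oa that was higher at P69 than at P42 by its brighter or single probe, by 0.61, and it was higher by 0.45 at P55.

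**Figure D2:**
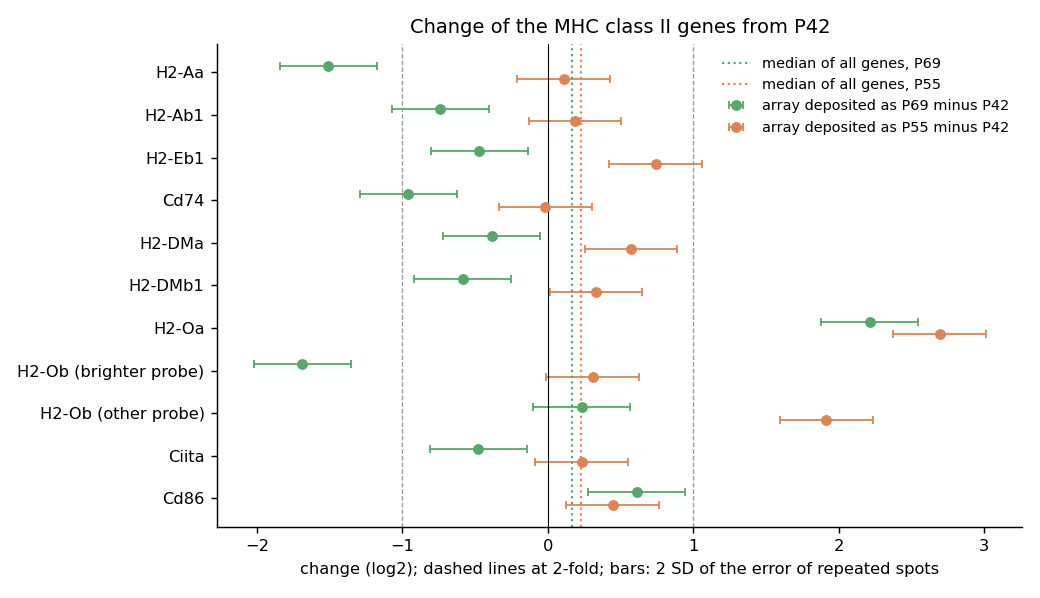
Change of each MHC class II gene from P42 (x axis, log2) on the array deposited as P69 (green) and as P55 (orange); bars are 2 SD of repeated-spot error, not of animals. H2-Oa lies at 2.21 and 2.69, and the 2 probes of H2-Ob lie at -1.69 and 0.23 at P69.

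As a set, the 10 genes had a median change of -0.53 from P42 to P69, where all 16163 genes with a value had a median of 0.16. One gene, H2-Oa, was at least 2-fold higher, as were 22.6% of all genes, and 2 genes, H2-Aa and H2-Ob, were at least 2-fold lower, as were 20.7% of all genes. H2-Ob counts here by its brighter probe only, and with the median over its probes H2-Aa was the 1 gene at least 2-fold lower. Lower by any amount were 8 of the 10, H2-Ob by its brighter probe among them, against 44.8% of all genes, but this direction depends on the scaling: 5 were lower after scaling to the array median, 3 after quantile normalization and 2 without normalization. Relative to the median of all genes under the same scaling, 8 of the 10 were lower after scaling to the 75th percentile. The array median and no normalization differ from this only by a common factor per array, so the same count there adds nothing. After cyclic loess 8 were lower, after normexp 7 and after quantile normalization 5.

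From P42 to P55 the median change of the 10 genes was 0.32, and that of all 15835 genes was 0.23. By the brighter or single probe, H2-Oa alone was at least 2-fold higher, against 29.4% of all genes, and 0 of the 10 were at least 2-fold lower, against 16.9%. Higher by any amount were 9 of 10, against 55.9% of all genes, but after cyclic loess, or with the percentile taken over probes well above background on all arrays, 4 were higher and 6 lower. The changes of H2-Aa, H2-Ab1, Cd74 and Ciita were within 2 SD of the spot error, and so was that of H2-Ob by its brighter probe, whereas its other probe was higher by 1.91.

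Between the 2 later arrays the median change from P55 to P69 was -0.93, against -0.14 over 14853 genes. H2-Aa, H2-Eb1 and H2-Ob were at least 2-fold lower, by 1.62, 1.21 and 2.00, against 11.3% of all genes, and 0 of the 10 were at least 2-fold higher, against 8.12%. Lower by any amount were 9 of 10, against 57% of all genes, with Cd86 higher by 0.16. Under the exchanged assignment of the arrays each of these signs turns. The count of lower genes also depends on the scaling: 6 were lower after cyclic loess, 7 without normalization and 8 after quantile normalization.

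The change of a gene moved with its brightness on these arrays. The 261 genes with a mean level of at least 6, which include H2-Aa, H2-Ab1, H2-Eb1, H2-DMa, H2-DMb1 and Cd74, had a median change of -1.02 from P42 to P69, and 96.2% of them were lower at P69. Of these bright genes 54.4% were at least 2-fold lower. H2-DMa, H2-Eb1, H2-DMb1, H2-Ab1 and Cd74 were lower by less than most of them, with 29, 38, 65, 84 and 112 of the 261 genes above them. H2-Aa was lower by more than most, with 12 of the 261 below it. From P42 to P55 36.2% of the genes this bright were higher, and of the 6 class II genes among them 5 were, Cd74 being lower by 0.02. From P55 to P69 98.8% of the genes this bright were lower, with a median of -0.75. In that comparison all 6 class II genes were lower by more than most, with 184 to 255 of the 260 genes above them. The part that brightness has in the lower level of the class II chains at P69 was not tested.

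H2-Oa and Cd86 are read against dimmer genes. Genes with a mean level from 2 to 4, where H2-Oa lies, had a median change of 0.47 at P69 and 0.89 at P55, below the 2.21 and 2.69 of H2-Oa. Genes from 0 to 2, where Cd86 and H2-Ob lie, had medians of 0.52 and 0.62. The 0.61 and 0.45 of Cd86 were close to these medians.

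**Figure D3:**
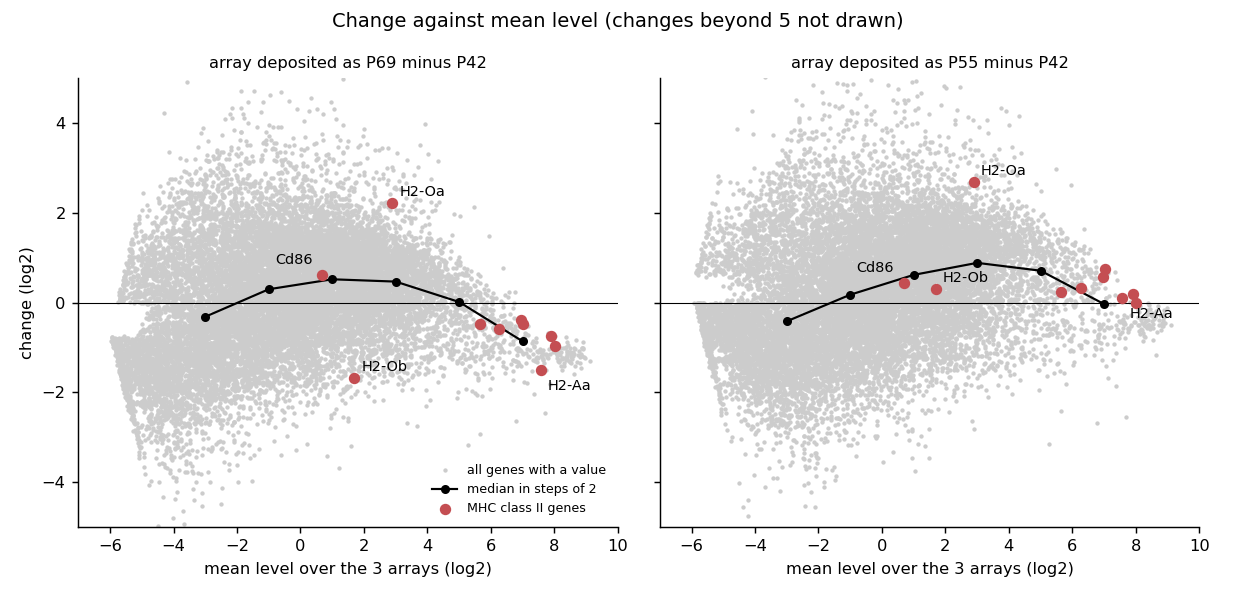
Change from P42 (y axis, log2) against the mean level over the 3 arrays (x axis, log2) for all genes with a value (grey) and the MHC class II genes (red), on the arrays deposited as P69 (left) and P55 (right); the black line joins medians in steps of 2. At P69 the median of genes at levels 6 to 8 was -0.86, and H2-Oa lay at 2.21 where genes of its brightness had a median of 0.47.

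The class II genes share a block of the genome and promoter elements. In the mouse annotation (GRCm38.p6) H2-Oa, H2-DMa, H2-DMb2, H2-DMb1, H2-Ob, H2-Ab1, H2-Aa, H2-Eb1 and H2-Eb2 follow each other in this order on chromosome 17, Ciita and Cd86 lie on chromosome 16 and Cd74 lies on chromosome 18. The gene that differed most in its change, H2-Oa, thus lies at one end of the order, next to H2-DMa, from which its change differed by 2.60 at P69 and 2.12 at P55.

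Class II promoters carry an X box, bound by the RFX factors, and a Y box, bound by NF-Y. RefSeq promoter sequences from 250 bases before to 50 bases after the start site were at hand for H2-Aa, H2-DMa, H2-DMb1, H2-Eb1, H2-Oa and H2-Ob, and H2-Ab1, Cd74, Ciita and Cd86 had no entry. The windows below (GRCm38.p6, gene strand, 5′ to 3′) are shown to set H2-Oa beside other genes of the set. H2-DMb1, H2-Aa and H2-Eb1 did not share its change, and the probes of H2-Ob disagreed. Capitals mark GNAAC, a stretch within the X box, and GATTGG, the Y box.

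H2-Oa (chr17:34092297-34092346, plus strand): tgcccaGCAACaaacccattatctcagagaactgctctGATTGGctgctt

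H2-DMb1 (chr17:34153091-34153140, plus strand): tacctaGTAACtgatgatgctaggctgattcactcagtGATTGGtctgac

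H2-Ob (chr17:34238812-34238858, plus strand): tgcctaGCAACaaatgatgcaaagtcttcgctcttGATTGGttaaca

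H2-Aa (chr17:34287861-34287910, minus strand): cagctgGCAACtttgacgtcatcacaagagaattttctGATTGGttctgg

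H2-Eb1 (chr17:34305770-34305818, plus strand): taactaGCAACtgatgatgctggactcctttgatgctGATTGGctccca

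GATTGG, on either strand, was in 6 of these 6 promoters and in 16.1% of all 32851 promoters of the same length. Its overlapping shorter form, CCAAT, was in 37.4% of all promoters. GNAAC followed 20 to 40 bases later by GATTGG, an arrangement chosen after the sequences had been seen, was in 5 of the 6 and in 1.17% of all promoters. The longer X1 box consensus, searched with its variable positions left free, was found for H2-DMb1 alone among the 6 and in 0.0609% of all promoters. H2-Oa, with the largest change of the set, held the pair with the same gap of 27 bases as H2-Aa and H2-DMb1, and the letters alone do not set it apart. Matches of letters do not show binding.

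Of 18 factors known to act on class II transcription, 4 were at least 2-fold higher at P69 than at P42 and 0 at least 2-fold lower, and at P55 3 were higher and 2 lower. Over all genes 22.6% were higher and 20.7% lower at P69 and 29.4% and 16.9% at P55, so that the counts of higher genes were no larger than these shares give. The median changes were 0.04 and 0.20. Rfx5, the large subunit of the RFX complex on the X box, read -0.54 at P42, 1.17 at P55 and 1.31 at P69, higher by 1.85 (3.61-fold) at P69. Nfyc, a subunit of NF-Y, was higher by 1.27 and 1.47, Irf8, a myeloid interferon regulatory factor, by 1.11 and 1.29, and the coactivator Ep300 by 1.14 and 0.99. The other RFX and NF-Y subunits, Rfxap, Rfxank, Nfya and Nfyb, changed by -0.04 to 0.73. Prdm1, a repressor of Ciita, was lower by 0.92 at P69 and 1.18 at P55, and the acetyltransferase Kat2b was lower by 1.10 at P55.

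Interferon gamma is the main inducer of Ciita outside dendritic and B cells. Of 11 genes of its signalling and response, 1 was at least 2-fold higher and 1 lower at P69, and 1 higher and 3 lower at P55, beside the same shares of all genes. Ptpn2, a phosphatase that dampens the pathway, read -1.95 at P42, -0.17 at P55 and 0.14 at P69. The chemokine Cxcl9, an interferon gamma target, was lower by 1.94 and 1.67 at P69 and P55, and Gbp2, a guanylate-binding protein, by 0.82 and 2.18. The receptor chains and kinases Ifngr1, Ifngr2, Jak1 and Jak2 changed by -0.30 to 0.48, and the transcription factor Irf1 by -0.98 and -0.56.

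Of 20 genes for endosomal processing and turnover of class II, 5 were at least 2-fold higher and 2 lower at P69, with a median of 0.34, and 8 were higher and 1 lower at P55, with a median of 0.50. At P69 the share of higher genes was near the 22.6% of all genes, and at P55 the 8 of 20 stand against 29.4%. The proteases Ctsd and Ctsh were higher on both later arrays, Ctsh by 1.32 at P69 and 1.97 at P55, and Ctsl was higher by 1.37 at P69. Ctss, which cleaves the invariant chain in most antigen-presenting cells, changed by -0.10 and 0.59. The tetraspanin Cd9 had the largest increase of the list on both arrays, by 2.24 and 2.93, and Cybb, the oxidase subunit that limits acidification of endosomes, was lower by 1.30 and 1.95. Marchf1, the ligase that removes class II and Cd86 from the surface, had probes that disagreed, at -1.17 for the brighter and 0.96 for the other at P69, and the related Marchf8 was higher by 1.39.

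Of 18 costimulatory and coinhibitory genes on the array besides Cd86, 13 had a value. At P69 2 were at least 2-fold higher and 3 lower, and at P55 3 higher and 1 lower, where all genes had the shares given above. Cd80, the sister ligand of Cd86, was lower by 0.38 and 0.57. Havcr2, which encodes Tim-3, was higher by 2.91 and 3.04 (8.21-fold), and the ligand gene Cd276 by 1.54 and 2.29. The PD-1 ligands Cd274 and Pdcd1lg2 were lower by 2.06 and 1.80 at P69, and Cd274 was not well above background at P55. The adhesion ligand Icam1 was lower by 1.12 and 0.68, and Tnfsf9, the 4-1BB ligand, by 0.79 and 0.83.

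Of 21 class I presentation genes, 5 were at least 2-fold higher and 2 lower at P69, with a median of 0.20, and 3 higher and 1 lower at P55. The 5 of 21 are near the 22.6% of all genes, and the 3 of 21 are below the 29.4% at P55. The classical class I heavy chains H2-K1 and H2-D1 were lower at P69 by 0.79 and 0.88, beside the -0.74 of H2-Ab1, and both lay between the quartiles of the genes with a mean level of at least 6 (-1.22 and -0.58). H2-Q4 was lower by 1.38 and 1.04 at P69 and P55, and H2-T23, another class I heavy chain gene, by 1.04 at P69. The peptide transporter gene Tap1 changed by -0.39 and -0.43. Cd1d1, which presents lipids, was higher by 3.36 at P69, and H2-M3, a nonclassical class I gene, by 1.30 at P55.

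**Figure D4:**
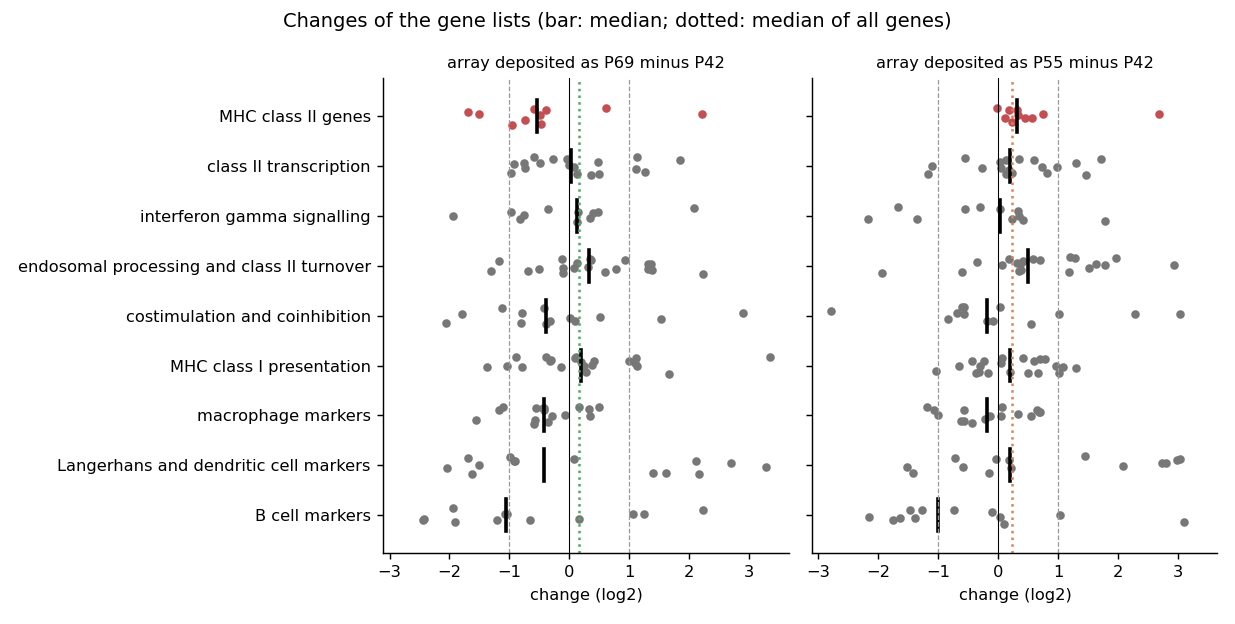
Change from P42 (x axis, log2) of every gene with a value in each list, on the arrays deposited as P69 (left) and P55 (right); each point is 1 gene by its brightest probe, bars are list medians, the dotted line is the median of all genes and dashed lines mark 2-fold. The MHC class II genes had medians of -0.53 and 0.32, with H2-Oa as their one point beyond 2-fold on the right.

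The sorted cells carried the genes that define macrophages on every array. Adgre1, which encodes the F4/80 of the gate, read 4.83, 5.51 and 5.15. Of 16 macrophage markers, 0 were at least 2-fold higher on either later array, 3 lower at P69 and 2 lower at P55. Itgam, which encodes the CD11b of the gate, was among the 3 lower at P69. Over all genes 22.6% were at least 2-fold higher and 20.7% lower at P69, and 29.4% and 16.9% at P55. At P69 12 of the 16 were lower by any amount, against 44.8% of all genes, with a median change of -0.42. The complement gene C1qb was lower by 1.18 and 1.07 and the scavenger receptor gene Cd163 by 1.55 and 1.19, Csf1r was higher by 0.16 and 0.70, and Mertk was higher by 0.50 at P69. In a pool of cells, a larger share of one cell type and more RNA per cell cannot be told apart. Markers of other class II-positive cells were read for this reason.

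Of 14 Langerhans and dendritic cell markers with a value, 6 were at least 2-fold higher on both later arrays, with 4 at least 2-fold lower at P69 and 2 at P55. The shares of all genes were 22.6% higher and 20.7% lower at P69, and 29.4% and 16.9% at P55. The summed linear signal of the markers relative to the 75th percentile was 141 at P42, 268 at P55 and 171 at P69. Cd207 carried much of it, and without Cd207 it was 127, 159 and 111. Of the 14 markers 7 were higher and 7 lower by any amount at P69. Cd207, the langerin of Langerhans cells, read 3.78, 6.76 and 5.90, and Epcam, which Langerhans cells also express, read 1.27, 4.06 and 3.98. Itgax, which encodes CD11c, read 1.58, 4.31 and 3.76. Fscn1, Ccr7, Batf3 and Cd209a were lower by 2.04, 1.70, 1.62 and 1.51 at P69, and Clec9a was not above background at P42 and P55. The part of such cells in the change of H2-Oa was not tested.

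Of the defining B cell genes, Cd79a did not stand well above background at P42, P55 or P69, and Ms4a1 did so at P42 only. Of 12 B cell markers with a value, 7 were at least 2-fold lower and 3 higher at P69, and 6 lower and 2 higher at P55. Their summed linear signal was 98.2 at P42, 51.0 at P55 and lower again at P69. Over all genes 20.7% were at least 2-fold lower and 22.6% higher at P69, and 16.9% and 29.4% at P55. Cd22 and Cr2 were lower by 1.94 and 1.91 at P69, and Bank1 and Cr2 by 2.16 and 1.75 at P55. Cd72, which is on B cells and some other leukocytes, was higher by 2.24 and 3.11. Most keratinocyte markers were higher as well, 11 of 15 at least 2-fold at P69 and 12 of 15 at P55, with medians of 3.09 and 3.29. Their summed linear signal was 279 at P42, 408 at P55 and 276 at P69, so the sum was not higher at P69. Such a sum weighs bright probes most and does not show how most markers changed. By any amount 13 of the 15 were higher at P69, against 55.2% of all genes. Trp63 and Ivl were lower, by 0.68 and 0.07. Of 12 T cell markers, 4 were at least 2-fold higher and 2 lower at P69, and 5 higher and 1 lower at P55, beside the same shares of all genes. The part of these cells in the class II values was not tested.

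**Figure D5:**
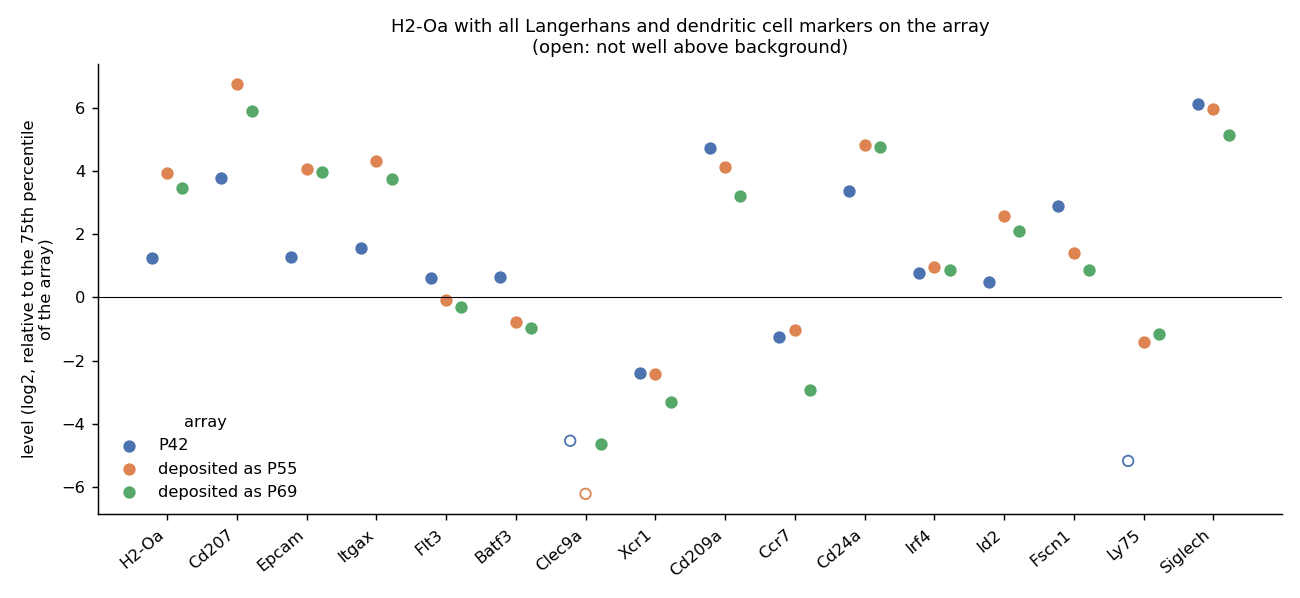
Level (y axis, log2 relative to the 75th percentile of the array) of H2-Oa and of all 15 Langerhans and dendritic cell markers on the array; 1 point per array, open where not well above background. H2-Oa, Cd207, Epcam and Itgax are lowest at P42, and Fscn1, Batf3 and Cd209a are highest there.

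Genes with patterns like those of the set were listed by the distance between their pair of changes and that of the set, over 13044 genes well above background on all 3 arrays. Nearest to the median pair of H2-Aa, H2-Ab1, H2-Eb1 and Cd74 were Recql4, Slc10a6, Ifna12, Cmtm5 and Selplg, and 143 genes lay within 0.25. Nearest to H2-Oa, a search added after its value was seen, were Lrp4, Papss1, Itgax, Med17 and Rasl11b, and 57 genes lay within 0.25. With 3 arrays such a pattern rests on 2 numbers.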

How the data were processed

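Intensities per spot were deposited by the authors as scanner output of Feature Extraction 10.7 (1-colour Agilent 8x60K arrays), after the software's background correction and without normalization between arrays. Its calls of outlier spots and of spots well above background are deposited alongside. The authors also deposited a log2 table of 36409 probes, each centred on its median over the 3 arrays and varying by at least 1.00, which holds 4 of the 10 genes. The normalization of that table is not given in the sources used here.

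Control and outlier spots were left out, spots of a probe averaged, and log2 taken relative to each array's 75th percentile. Of 55681 probes, 26050 received a symbol through their transcript and the RefSeq gene table (GRCm38.p6). The probe with the highest mean signal stands for a gene. A change needed a probe well above background (at least 0.5 of its spots) on 1 of the 2 arrays. With 1 dim side, the lowest detected signal of that array, or the probe's own if higher, gave a bound of at least that fold. Spot error came from probes with at least 10 spots. Counts used 2-fold (10-fold in the study's methods). The number of arrays limits the precision.

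The genes and lists were chosen with earlier results of these data known. Named from the lists on class II, class I, macrophages, dendritic and B cells were the gene with the largest increase, the 2 with the largest decreases and the defining genes, with the 5 nearest genes to the classical pattern, and other genes were named after their values were seen. Python 3.11.15, pandas 2.3.3, R 4.3.3 and limma 3.58.1 (normexp with offset 50, quantile, cyclic loess) were used, and the steps were tested on simulated data. No single value is given here for a further gene of the B cell list.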

Additional observations from a re-analysis of the deposited data

How the results depend on the processing

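The 3 comparisons were repeated under 13 alternatives, and cyclic loess was chosen after seeing the data. Of 342 values of single genes, 157 moved by less than the spot error, and 71 turned sign, 34 of them in the authors' table or after exchanging P55 and P69. Most of the 157 came from the changed filters, the outlier spots and the median over probes. These could hardly move genes with 1 spot per probe, mostly 1 probe, and signal well above background on all arrays. Changes of at least 2-fold turned in the 11 cases given last. The median change of the 10 genes (P69 against P42, P55 against P42, P69 against P55) was -0.74, -0.054 and -0.77 with the percentile over probes well above background on all arrays, and 0.63, 0.58 and -0.034 without normalization. After cyclic loess it was -0.28, -0.18 and -0.081. It was -0.012 and 0.88 in the first 2 comparisons with the array median, 0.25 and -0.20 in the first and last after quantile normalization, and -0.28 in the first after normexp. In the authors' log2 table it was 0.53, -0.99 and 1.42 over 4 genes, and with P55 and P69 exchanged 0.32, -0.53 and 0.93. The median of all genes, 0.16 from P42 to P69, became 0.66 with the array median, 1.33 without normalization, 0.31 after quantile normalization, 0.29 after cyclic loess, 0.04 after normexp and -0.04 with the other percentile.

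From P42 to P69, the 1 gene higher and 2 lower by 2-fold became 2 and 1 with the array median, and 2 and 0 without normalization. There was 1 lower after quantile normalization, normexp or the median over probes, and 0 in the authors' table or after the exchange. From P42 to P55, 4 were higher with the array median, 2 without normalization, after normexp or with the median over probes, and 2 were lower in the authors' table and after the exchange. From P55 to P69, 1 was higher and 1 lower without normalization, 1 lower after quantile normalization or cyclic loess, and 3 higher and 0 lower in the authors' table and after the exchange. At 10-fold, 0 were higher and 0 lower in all comparisons, H2-Oa included.

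H2-Ob turned to 0.22 from P42 to P69 after normexp, where its other probe became the brighter one, while the first probe stayed at -1.52. In the authors' table H2-Aa and H2-Ob turned to 0.11 and 0.31 from P42 to P69, and H2-Aa, H2-Eb1 and H2-Ob to 1.62, 1.22 and 2.00 from P55 to P69. After the exchange they were 0.11 and 0.31, and 1.62, 1.21 and 2.00, as its construction requires. The cause of the other changes was not tested. No paired analysis was possible because each age has 1 array, and leaving out an array would leave out an age.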
